A study of Mus musculus with 43 samples.

Results

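Gliosis and injury response genes were followed in the retina after laser-induced choroidal neovascularization (CNV), a lesion in which new vessels grow from the choroid. The set has 10 genes, chosen by name for their known roles in gliosis and injury: *Gfap*, *Vim*, *Lcn2*, *Serpina3n*, *Edn2*, *Ednrb*, *Fgf2*, *Stat3*, *Socs3* and *Osmr*. Earlier results of these data were known when they were chosen, so the set is not independent of the data. All 10 are among the 54532 genes of the deposited count table, and all 10 passed the filter on low counts, as did 18173 genes in all. The mice were C57BL/6J males and females, 9 weeks old, that drank either plain water (control) or water with short-chain fatty acids (SCFA: acetate at 67.5 mM, propionate at 40 mM and butyrate at 25 mM). Treatment began before the laser injury and went on until the retinas were taken at 3, 7 or 14 days post-laser (dpl). Every group was lasered, so there is no uninjured retina to compare with. Each library pooled 2 retinas from different mice, and the whole retina was taken, so that lesion and surrounding tissue are mixed.

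The 12 groups held 3 to 5 libraries each, 43 in all, and 42 were analysed. At 3, 7 and 14 dpl there were 3, 3 and 3 female control, 4, 4 and 4 female SCFA, 4, 3 and 3 male control, and 3, 5 and 3 male SCFA libraries. Female SCFA replicate 2 of 3 dpl was left out for its lens transcripts. Values are CPM, counts scaled to the library's size after TMM normalization, and totals ran from 14826957 to 21507527 counts per library. The lowest count of any of the 10 genes in any library was 42, in *Socs3*, so none was near the detection floor of 3 counts. Whether different pools held eyes of the same mouse is not given, so the p-values measure the spread between pools of retinas, part of which may be technical. The library labelled female control replicate 2 of 7 dpl held 308 counts of the Y-linked *Ddx3y*, against 0 in the other 20 female libraries and 804 to 1786 in the 21 male ones. Where leaving it out changed a call described below, or moved a value of 7 dpl described below by over 1.5 times, the value without it is given as well.

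Müller cells span the thickness of the retina and, together with the astrocytes of the nerve fibre layer, answer injury with gliosis: they enlarge and build up the intermediate filaments GFAP and vimentin. Much of this answer runs through cytokines of the interleukin 6 family, whose receptors contain gp130. OSMR, the receptor chain for oncostatin M, pairs with gp130, the kinases at this receptor phosphorylate STAT3, and STAT3 drives transcription of *Socs3*, which encodes the feedback inhibitor of the pathway. Damaged photoreceptors are known to release endothelin 2, encoded by *Edn2*, which acts on the endothelin receptor B (*Ednrb*) of Müller cells. FGF2 is a growth factor that protects photoreceptors, and *Lcn2* and *Serpina3n* encode secreted acute-phase proteins, an iron scavenger and a protease inhibitor, that mark reactive glia.

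Promoters were examined for the letters TTCNNNGAA, the core that STAT factors bind, because several of the genes belong to this pathway. The motif reads the same on both strands. In windows from 250 bases before to 50 bases after the RefSeq transcription start (GRCm38.p6), it was found in 2 of the 10 genes, *Gfap* and *Socs3*, and in 8.30% of all 32851 promoters. The windows below run from 180 bases before to 10 bases after the start, 5′ to 3′ on the minus strand that carries both genes, with the motif in capitals. They are chr11:102897191-102897380 for *Gfap* and chr11:117969357-117969546 for *Socs3*.
Gfap: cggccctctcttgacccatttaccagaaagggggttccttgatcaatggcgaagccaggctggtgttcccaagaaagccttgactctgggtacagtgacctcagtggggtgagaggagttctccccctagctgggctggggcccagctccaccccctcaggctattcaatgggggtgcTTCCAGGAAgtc
Socs3: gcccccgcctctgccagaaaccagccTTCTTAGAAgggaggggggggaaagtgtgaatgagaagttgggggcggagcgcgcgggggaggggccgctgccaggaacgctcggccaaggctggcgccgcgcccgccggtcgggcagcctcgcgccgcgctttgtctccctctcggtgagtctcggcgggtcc
In *Gfap* the motif began at position −2 from the start and so overlaps it, and in *Socs3* it began at position −154 from it. The core bound by AP-1, TGANTCA, was found in 1 of the 10 promoters, that of *Osmr*, 3 bases after the start, and in 7.81% of all promoters. These are letter matches, and no binding was measured. The coding *Socs3* transcript of GENCODE M21 begins further downstream than this RefSeq start.

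The genes the results turn on lie, on GRCm38, at chr11:102887336-102900912 on the minus strand (*Gfap*, ENSMUSG00000020932), chr2:13573927-13582826 on the plus strand (*Vim*, ENSMUSG00000026728), chr2:32384633-32388252 on the minus strand (*Lcn2*, ENSMUSG00000026822), chr12:104406729-104414329 on the plus strand (*Serpina3n*, ENSMUSG00000021091), chr4:120161206-120167360 on the plus strand (*Edn2*, ENSMUSG00000028635) and chr15:6813577-6874969 on the minus strand (*Osmr*, ENSMUSG00000022146). All are protein-coding, and the deposited counts are per gene.

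In all 42 libraries the 10 genes were expressed, at levels that differed widely between genes and between libraries. Scaled per kilobase of all annotated exons of the gene joined, *Vim* had the highest level, with a median over the libraries of 42.4 CPM per kb. *Gfap* followed at 12.7, *Edn2* at 10.8, *Serpina3n* at 9.88 and *Stat3* at 6.75 CPM per kb. The remaining genes, *Fgf2*, *Lcn2*, *Socs3*, *Ednrb* and *Osmr*, lay between 4.78 and 0.681 CPM per kb. The joined exons can be longer than the transcript expressed, so this order of genes is approximate. *Serpina3n* varied most from library to library, 20.7-fold between the lowest and the highest, and *Edn2* 17.8-fold. The range was 6.33-fold for *Gfap* and 5.59-fold for *Lcn2*, whereas for *Vim* and *Stat3* it was only 2.51-fold and 2.29-fold. Reads of *Serpina3n* may be shared with its paralogs, and *Gfap*, *Fgf2* and *Stat3* overlap other genes, so their counts carry that uncertainty.

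The male control group of 3 dpl had the highest mean for 6 of the 10 genes: *Gfap* (104 ± 22.3 CPM, SD, n = 4), *Serpina3n* (62.2 ± 34.3), *Fgf2* (45.5 ± 12.1), *Stat3* (83.4 ± 18.4), *Socs3* (9.53 ± 3.34) and *Osmr* (11.4 ± 3.43), all with the same n. The male control group of 7 dpl had the highest mean for *Vim*, *Lcn2* and *Edn2*, and the male SCFA group of 7 dpl for *Ednrb*. When the 12 groups were ordered by mean, all 11 pairs of neighbours overlapped in their libraries for every gene. No 2 neighbours in this order were thus separated by their spread.

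**Figure D1:**
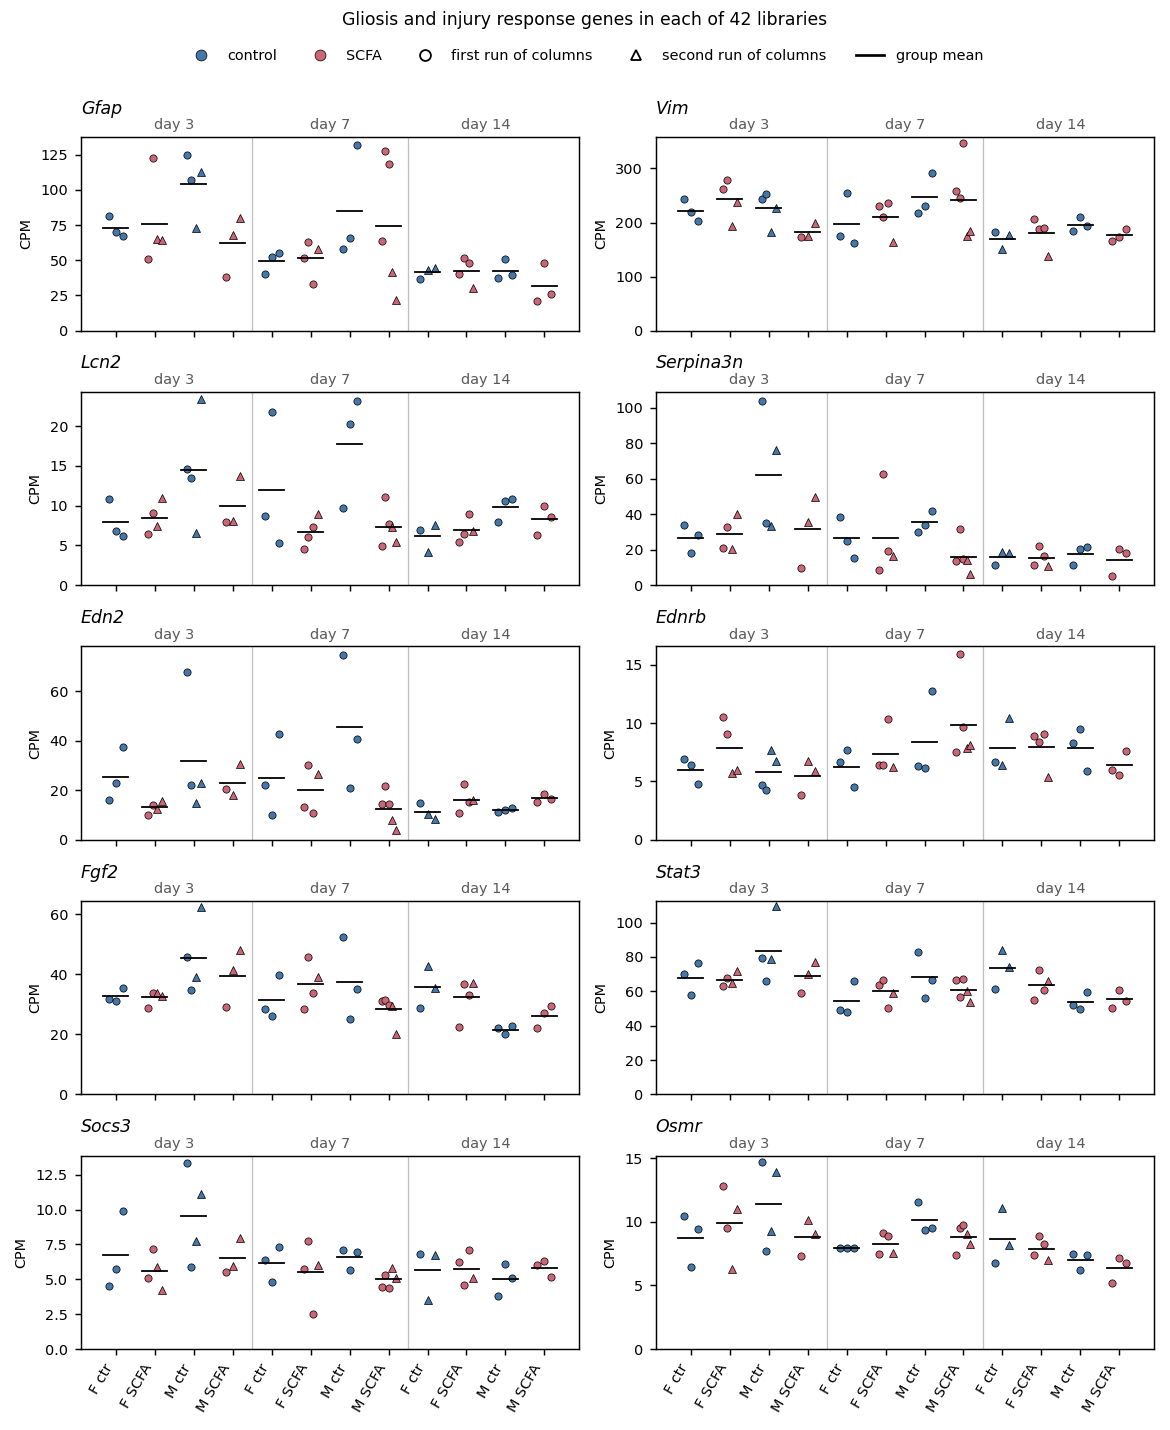
CPM of each of the 10 genes (vertical axes, linear from 0) in the 42 libraries, by sex (F, M) and treatment (ctr, SCFA) within 3, 7 and 14 dpl (horizontal axis). Circles and triangles are libraries of the first 31 and the last 12 columns of the deposited table, and horizontal bars are group means; *Gfap* lies between 20.8 and 51.5 CPM at 14 dpl and reaches 125 CPM at 3 dpl.

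*Gfap*, *Vim*, *Serpina3n* and *Osmr* were lower at 14 dpl than at 3 dpl when control and SCFA groups of both sexes were pooled in the contrast. Comparisons of days over both treatments were added after the values had been seen, and 1.14% of all genes tested were lower in this one (1.58% in either direction). Over the 10 genes the median log2 fold change was −0.35, against 0.01 over all genes tested, and 9 of the 10 had a negative value. An unadjusted p under 0.05 was reached by 8 of the 10 and by 14.5% of all genes.

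The filament genes give the plainest example. *Gfap* had 38.4 CPM in the lowest, 71.5 in the median and 125 in the highest of 14 libraries at 3 dpl, and 20.8, 40.1 and 51.5 CPM in 13 libraries at 14 dpl. All 13 libraries of 14 dpl lay under the median of 3 dpl, and 5 of them under its lowest library, although the ranges overlapped. The log2 fold change was −1.05 (SE 0.190, 95% interval −1.44 to −0.66), a level 2.07-fold lower, with an adjusted p = 0.00250 in the quasi-likelihood test of edgeR (Benjamini-Hochberg), which all adjusted p-values here refer to unless DESeq2 is named. *Vim*, which Müller cells express also without injury, moved by less. It had 174, 223 and 279 CPM (lowest, median and highest) at 3 dpl and 139, 185 and 209 CPM at 14 dpl. Again all 13 libraries of 14 dpl were under the median of 3 dpl, with a log2 fold change of −0.34 (SE 0.0743, adjusted p = 0.0157).

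Among the secreted acute-phase genes, *Serpina3n* fell by a similar factor to *Gfap* with a wider error. Its lowest, median and highest values were 9.85, 33.7 and 104 CPM at 3 dpl and 5.02, 18.1 and 22.1 CPM at 14 dpl. The highest library of 14 dpl was under the median of 3 dpl, and the log2 fold change was −1.19 (SE 0.278, 95% interval −1.75 to −0.62, adjusted p = 0.0270). *Lcn2* had medians of 8.63 and 7.57 CPM, and 9 of 13 libraries of 14 dpl lay under the earlier median. Its log2 fold change of −0.35 (SE 0.194) did not pass the test (adjusted p = 0.405).

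In the cytokine pathway, the receptor gene *Osmr* passed the test. It had 6.31, 9.46 and 14.7 CPM at 3 dpl and 5.19, 7.38 and 11.1 CPM at 14 dpl, and 12 of 13 later libraries were under the earlier median. The ranges overlapped widely, and the log2 fold change of −0.38 (SE 0.109) lay close to the threshold of the test, an adjusted p of 0.1 (adjusted p = 0.0863). *Stat3* had a log2 fold change of −0.20 (SE 0.0750, adjusted p = 0.202). For *Socs3* the value was −0.32 (SE 0.150, adjusted p = 0.310), and only 6 of 13 libraries of 14 dpl were under the median of 3 dpl. Neither of these 2 genes passed the test.

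The endothelin genes *Edn2* and *Ednrb* and the growth factor gene *Fgf2* did not pass it either. *Edn2* had a log2 fold change of −0.76 (SE 0.236, adjusted p = 0.125), or −0.75 (adjusted p = 0.0899) without the female control library of 7 dpl with Y-linked transcripts, and *Fgf2* of −0.35 (SE 0.108, adjusted p = 0.116), while the receptor *Ednrb* had 0.24 (SE 0.153, adjusted p = 0.475). *Edn2* was under its 3 dpl median in 12 of 13 libraries of 14 dpl and *Fgf2* in 9 of 13. *Ednrb* was over it in 9 of 13, the one gene of the set with a positive value. By DESeq2 *Fgf2* passed besides the other 4 genes (DESeq2's adjusted p = 0.0681), as did 2.53% of all genes.

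The libraries stood in 2 runs of columns of the deposited table, which the fit took up as a term. Within the first run alone none of the 10 genes passed, with *Gfap* at −0.92 (SE 0.206, adjusted p = 0.104), *Vim* at −0.28 (SE 0.0941, adjusted p = 0.424), *Serpina3n* at −0.85 (SE 0.342, adjusted p = 0.572) and *Osmr* at −0.44 (SE 0.134, adjusted p = 0.351). The second run had no male library of 14 dpl and gave no value. When each library was left out in turn, *Gfap*, *Vim* and *Serpina3n* passed in 42 of 42 fits, whereas *Osmr* was lost in 20 of them.

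Shorter intervals gave no call. Between 3 and 7 dpl none of the 10 genes passed the test with both treatments together (0.00550% of all genes did), and 2 had an unadjusted p under 0.05, as did 4.52% of all genes. From 7 to 14 dpl none passed either (0.0385% of all genes did), and 7 of 10 had an unadjusted p under 0.05, as did 11.5% of all genes. DESeq2 called 0 genes of the set in the first of these intervals and 1, *Vim*, in the second (DESeq2's adjusted p = 0.0537). Of all genes it called 0.0282% and 0.659%. *Gfap* had log2 fold changes of −0.40 (SE 0.188) and −0.65 (SE 0.185) in the first and the second interval, and *Serpina3n* of −0.53 (SE 0.277) and −0.66 (SE 0.269).

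Control and SCFA groups were also tested each in its own contrast. In the control groups the log2 fold change of *Gfap* from 3 to 14 dpl was −1.01 (SE 0.269, adjusted p = 0.270) and in the SCFA groups −1.09 (SE 0.279, adjusted p = 0.0872). Within the first run alone these values lay further apart, at −1.24 (SE 0.306, adjusted p = 0.467) and −0.59 (SE 0.282, adjusted p = 0.627). None of the 10 genes passed in the controls by edgeR or by DESeq2, where 0.116% of all genes did by edgeR, although 8 of 10 had an unadjusted p under 0.05, against 4.44% of all genes. In the SCFA groups *Gfap* and *Vim* passed (*Vim* −0.41, SE 0.108, adjusted p = 0.0918), as did 0.743% of all genes, and *Vim* also fell from 7 to 14 dpl (−0.40, SE 0.0964, adjusted p = 0.0842; 0.319% of all genes passed). Leaving out 1 library in turn lost *Gfap* in 14 and *Vim* in 20 of 42 fits from 3 to 14 dpl, and *Vim* in 14 of 42 from 7 to 14 dpl. The difference between the treatments in the change from 3 to 14 dpl was tested itself, and no gene of the set and no other gene passed (0.00%). DESeq2 called none of the set in it, and none had an unadjusted p under 0.05, against 4.18% of all genes. For *Edn2*, which had −1.24 (SE 0.338) in controls and −0.27 (SE 0.342) in SCFA groups, the difference was 0.96 with an adjusted p = 0.955.

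**Figure D2:**
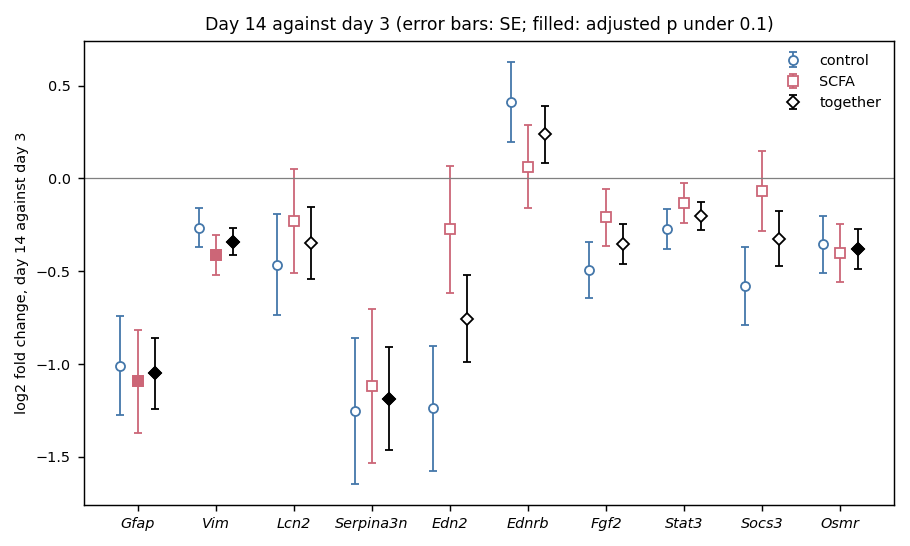
Log2 fold change of each gene from 3 to 14 dpl (vertical axis) in control groups, in SCFA groups and in both together, with standard errors as bars and filled symbols where the adjusted p is under 0.1. For both treatments together *Gfap* stands at −1.05, *Serpina3n* at −1.19 and *Vim* at −0.34, and *Ednrb* is the one gene above 0.

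Marker genes of microglia and macrophages moved in the same direction over this interval. Of 13 such markers, 6 were lower at 14 dpl than at 3 dpl and none higher, where 1.14% of all genes were lower. Among the 6 were *Cd68* (−1.01, SE 0.200), a lysosomal protein of phagocytes, and the complement gene *C1qb* (−0.81, SE 0.105). The summed level of the 13 markers was 78.4 to 169 CPM at 3 dpl and 64.97 to 109 CPM at 14 dpl. None of 10 Müller cell markers and none of 6 astrocyte markers passed the test, and their summed levels were 4830 to 9384 and 36.9 to 82.1 CPM at 3 dpl against 5017 to 6741 and 34.6 to 58.1 CPM at 14 dpl. Neutrophil markers were near 0: *Elane* and *Cxcr2* had 3 counts or fewer in 42 of 42 libraries, and only 1 of 11 could be tested. In whole retina, fewer cells of a type and less RNA per cell cannot be told apart, and the part of microglia in the result was not tested.

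Further genes of the same pathways were counted in lists, in the same comparison of 14 with 3 dpl over both treatments. The counts are to be read against the 1.14% of all genes that were lower in it. Of 17 JAK-STAT signal and feedback genes, 3 were lower: *Bcl3* (−1.73, SE 0.230), a nuclear cofactor of NF-kB, the transcription factor gene *Cebpd* (−0.46, SE 0.109) and the interferon regulatory factor gene *Irf1* (−0.39, SE 0.110). None of these 17 was higher. Of 8 genes for intermediate filaments and their partners, 2 were lower, the calcium-binding *S100a6* (−0.87, SE 0.139) and *S100a10* (−0.33, SE 0.0856). Of 17 other reactive glia genes tested, 3 were lower: the protease inhibitor genes *Timp1* (−1.57, SE 0.333) and *A2m* (−0.53, SE 0.137), and *C4b* of complement (−0.68, SE 0.168). None of the 6 other endothelin genes and none of the 10 other FGF genes passed.

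SCFA treatment was compared with control within each sex and day. At 7 dpl in males, *Edn2* and *Lcn2* were lower with SCFA and *Fgf2* reached the threshold, whereas *Gfap* and *Vim* gave values near 0. This comparison called 23.8% of all genes tested, and 10.3% as lower, so 3 genes of 10 is to be read against that background. Without the 5 libraries rich in myelin transcripts, described below, it called 12 genes in all instead of 4332. With all 42 libraries DESeq2 called 2 of the 10 genes, *Edn2* and *Lcn2*, and 25.4% of all genes. None of the 10 genes passed in the other 5 sex and day groups.

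*Edn2* had 74.6, 21.01 and 40.8 CPM in the 3 male control libraries of 7 dpl, and 14.5, 21.96, 14.7, 7.98 and 4.19 CPM in the 5 male SCFA libraries. Control replicate 1 was the highest of all, and 4 of 5 SCFA libraries lay under every control. The groups met only where SCFA replicate 2 passed control replicate 2. The log2 fold change was −1.75 (SE 0.420, 95% interval −2.60 to −0.89), 3.35-fold lower (adjusted p = 0.00382).

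*Lcn2* had 9.66, 20.3 and 23.2 CPM in the same controls and 4.93, 11.1, 7.69, 7.31 and 5.44 CPM with SCFA. Once more 4 of 5 SCFA libraries were under the lowest control, and replicate 2 was the exception. The level was 2.48-fold lower, with a log2 fold change of −1.31 (SE 0.348, 95% interval −2.01 to −0.60, adjusted p = 0.00803).

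*Fgf2* had 52.5, 25.3 and 35.1 CPM in the controls and 31.2, 31.3, 29.8, 29.5 and 20.1 CPM with SCFA. Control replicate 2 lay below 4 of the 5 SCFA libraries, so the groups overlapped. Its log2 fold change of −0.47 (SE 0.199) had an adjusted p of 0.0999, just inside the threshold, and without control replicate 1 it was −0.15 (adjusted p = 0.696). The call was lost in 34 of 42 fits with 1 library left out and in 9 of 12 other settings. *Serpina3n* had 30.1, 34.2 and 41.99 CPM in controls and 13.6, 31.6, 15.0, 14.4 and 6.15 CPM with SCFA. Here too, SCFA replicate 2 alone reached the controls. The test was not passed (−1.08, SE 0.496, adjusted p = 0.129). Without that library it was passed (−1.49, adjusted p = 0.0379), but leaving out the highest SCFA library widens the difference by itself.

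For the filament genes the values were small. *Gfap* had 57.8, 65.6 and 132 CPM in the controls and 64.0, 127, 118, 41.5 and 21.5 CPM with SCFA, which gave a log2 fold change of −0.12 (SE 0.343, 95% interval −0.81 to 0.57). Both groups held low and high libraries. *Vim* had 0.09 (SE 0.139, 95% interval −0.19 to 0.37). In the cytokine pathway the values were also negative, with *Stat3* at −0.22 (SE 0.140), *Socs3* at −0.38 (SE 0.281) and *Osmr* at −0.20 (SE 0.202), and *Ednrb* had 0.27 (SE 0.282). None of these passed.

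Libraries of this comparison differed in myelin transcripts and in markers of other cell types as well. Summed over 8 myelin genes, which oligodendrocytes express, male controls of 7 dpl had 35.4, 131 and 431 CPM and male SCFA libraries 53.3, 337, 77.9, 28.0 and 34.1 CPM, whereas all other groups stayed between 25.3 and 92.1 CPM. The control with little myelin had the highest *Edn2* and the lowest *Lcn2* of its group. Leaving out the 5 libraries of the series with the myelin gene *Mobp* over 5 CPM kept 1 control and 3 SCFA libraries here. Without them *Edn2* was still lower (−2.91, SE 0.597, adjusted p = 0.0687), while *Lcn2* was at −0.88 (SE 0.539, adjusted p = 0.531) and *Fgf2* at −1.11 (adjusted p = 0.159). Within the first run alone both genes passed (*Edn2* −1.43, adjusted p = 0.0352, and *Lcn2* −1.17, adjusted p = 0.0325), and no control of this comparison was in the second run. The fit without the *Mobp* libraries assumes that the lone control varied like the other groups, and that setting was chosen after the values had been seen.

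**Figure D3:**
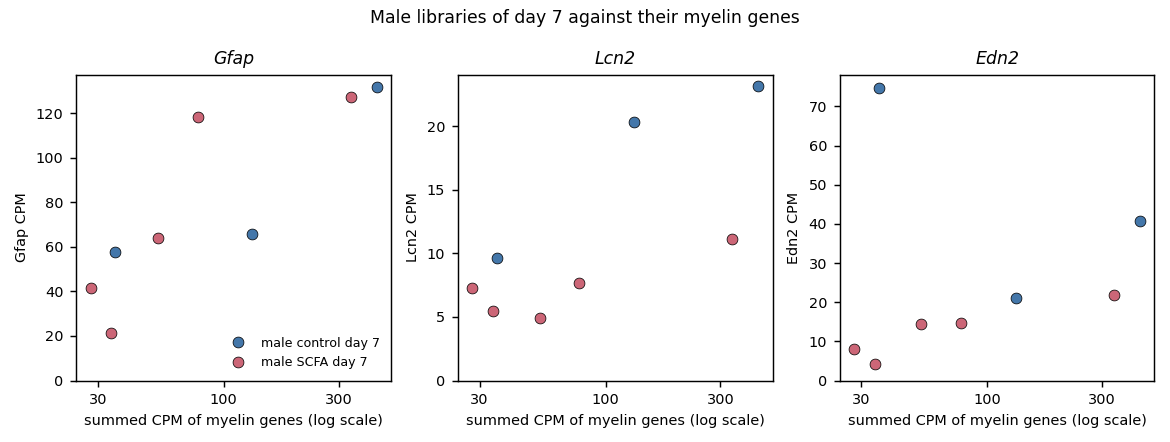
*Gfap*, *Lcn2* and *Edn2* (vertical axes, CPM from 0) in the 8 male libraries of 7 dpl against the summed CPM of 8 myelin genes in the same library (horizontal axis, log scale). The *Edn2* maximum, 74.6 CPM, lies in a control with 35.4 CPM of myelin genes, and the *Lcn2* maximum, 23.2 CPM, in the control with 431 CPM.

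Rod markers were lowest in SCFA replicates 1 and 3, with summed levels of 58102 and 48211 CPM against 78311 to 82084 CPM in the controls. The same libraries had the highest sums of Müller cell markers, 8736 and 10417 CPM against 5243 to 6540 CPM. Against the 23.8% of all genes that passed here, 4 of the 10 Müller markers were higher with SCFA: *Glul*, glutamine synthetase (1.02, SE 0.189), the transcription factor gene *Sox9* (1.09, SE 0.229), the retinoid carrier gene *Rlbp1* (0.89, SE 0.209) and the water channel gene *Aqp4* (0.83, SE 0.199). Of the 13 microglial markers 3 were lower, where 10.3% of all genes were, and their summed level was 122 to 177 CPM in controls and 80.4 to 130 CPM with SCFA. The 1 neutrophil marker tested, *Csf3r*, was also lower (−0.92, SE 0.382). Of 10 pigment epithelium markers 2 were lower, *Mlana* (−1.82, SE 0.606) and *Pmel* (−1.57, SE 0.550), and their summed level was 483 to 594 CPM in controls and 181 to 438 CPM with SCFA. The part of these differences in the result was not tested.

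Pathway lists were counted in males of 7 dpl too, where 23.8% of all genes passed, 10.3% as lower. *Junb*, an AP-1 subunit gene (−1.15, SE 0.252), and *Cish*, a feedback inhibitor gene (−0.45, SE 0.178), were lower and the kinase gene *Jak1* higher (0.28, SE 0.109), out of 17 JAK-STAT genes. *Lifr*, the receptor chain for LIF, was higher (0.52, SE 0.141), the 1 of 10 gp130 genes to pass. Of 10 other FGF genes 2 were higher, *Fgf9* (1.03, SE 0.214) and *Fgf13* (0.80, SE 0.224), and none of 6 other endothelin genes passed. Filament partners had 2 of 8 lower, the linker gene *Plec* (−0.50, SE 0.161) and the annexin gene *Anxa2* (−0.66, SE 0.250). Of 17 other reactive glia genes, *Cd44*, a hyaluronan receptor, was higher (0.78, SE 0.232) and *Emp1* (−1.29, SE 0.509) and *Tgm1* (−1.49, SE 0.597) were lower.

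In the other sex and day groups the set gave no call. In females, 0.418%, 0.941% and 0.00% of all genes passed at 3, 7 and 14 dpl, and in males 0.0275% and 9.68% at 3 and 14 dpl. These shares moved with single libraries: with 1 library left out in turn, the number of genes called ran from 0 to 481 in females of 3 dpl (76 with all libraries), from 0 to 2511 in females of 7 dpl (171) and from 0 to 2623 in males of 14 dpl (1760). DESeq2 called none of the 10 genes in these 5 comparisons, and 0, 1, 0, 1 and 0 of them had an unadjusted p under 0.05, against 15.0%, 17.1% and 3.19% of all genes in females and, in males, 2187 of 18173 genes at 3 dpl and 22.5% at 14 dpl. At 3 dpl in males all 10 log2 fold changes were negative, with a median of −0.34 against 0.01 over all genes. The *Edn2* values of control and SCFA libraries did not overlap at 3 dpl in females and at 14 dpl in males. At 3 dpl in females it had 16.1, 23.1 and 37.5 CPM in controls and 10.2, 14.2, 12.5 and 15.5 CPM with SCFA, all 4 below the controls (−0.74, adjusted p = 0.472). At 14 dpl in males the order was the opposite, with 11.2, 12.1 and 12.8 CPM in controls and 15.2, 18.6 and 16.5 CPM with SCFA (0.48, adjusted p = 0.587). Neither difference passed the test. No other gene of the set was separated in this way in any sex and day group. How many of all genes were separated was not counted, so these separations show nothing particular to *Edn2*.

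Averaged over the 6 sex and day groups, *Lcn2* was lower with SCFA and was the one gene of the set to pass. It had 4.18, 9.66 and 23.4 CPM (lowest, median and highest) in 19 control libraries and 4.52, 7.48 and 13.7 CPM in 23 SCFA libraries, so that the highest values belonged to controls while the lowest ends were alike. The log2 fold change was −0.46 (SE 0.155, 95% interval −0.77 to −0.15, adjusted p = 0.0230), 1.38-fold lower. In this comparison 36.7% of all genes passed, 19.0% as lower, so 1 of 10 is below the background. Values of the single groups were 0.04, −0.87 and 0.19 in females and −0.57, −1.31 and −0.24 in males at 3, 7 and 14 dpl. The female value of 7 dpl rests on control replicate 2, the library with Y-linked transcripts, at 21.8 CPM against 8.71 and 5.29 CPM in the other 2 controls: without it the log2 fold change was −0.10, and the average was −0.33 (adjusted p = 0.0763). Within the first run alone the average was −0.54 (SE 0.184, adjusted p = 0.0331). *Edn2* had −0.35 (SE 0.191, adjusted p = 0.170), which passed without the same library (−0.41, adjusted p = 0.0901), in the first run alone (−0.58, adjusted p = 0.0650) and without the 5 *Mobp* libraries (−0.56, adjusted p = 0.0613). *Serpina3n* had −0.37 (SE 0.218, adjusted p = 0.203), and passed without female SCFA replicate 2 of 7 dpl (−0.52, adjusted p = 0.0476). That library had the highest *Serpina3n* of all SCFA libraries, 62.6 CPM, so leaving it out widens the difference by itself.

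In this average, against 19.0% of all genes, 6 of 17 JAK-STAT genes were lower and none higher, led by *Junb* (−0.89, SE 0.109), the phosphatase gene *Ptpn11* (−0.30, SE 0.0644), *Cebpd* (−0.30, SE 0.0872) and *Cebpb* (−0.41, SE 0.121). Of 10 gp130 cytokine and receptor genes 1 was higher, *Lifr* (0.30, SE 0.0592). The endothelin list had 2 of 6 lower, *Ecel1* (−1.01, SE 0.345) and the endothelin-converting enzyme gene *Ece1* (−0.18, SE 0.0689). Of 10 other FGF genes *Fgf9* was higher (0.35, SE 0.0896) and 2 were lower, *Fgf1* (−0.34, SE 0.0852) and *Fgfrl1* (−0.29, SE 0.0771). Filament partners had 3 of 8 lower, the lamin gene *Lmna* (−0.36, SE 0.0707), *Anxa2* (−0.49, SE 0.109) and the nestin gene *Nes* (−0.30, SE 0.118). Of 17 other reactive glia genes 6 were lower, among them *Emp1* (−0.78, SE 0.226), and 1 was higher, *Cd44* (0.27, SE 0.0973). Of the 7 ganglion cell markers 5 were lower, and of the 13 microglial markers 4 were lower, to be read against the same 19.0%. Of the 10 Müller cell markers 4 were higher and 1 lower, where 36.7% of all genes passed in either direction. Pigment epithelium had 2 of 10 markers lower, endothelium 1 of 8 higher and 1 lower, and rods 1 of 8 higher. No astrocyte, myelin or lens marker passed. The part of these cell types in the result was not tested.

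**Figure D4:**
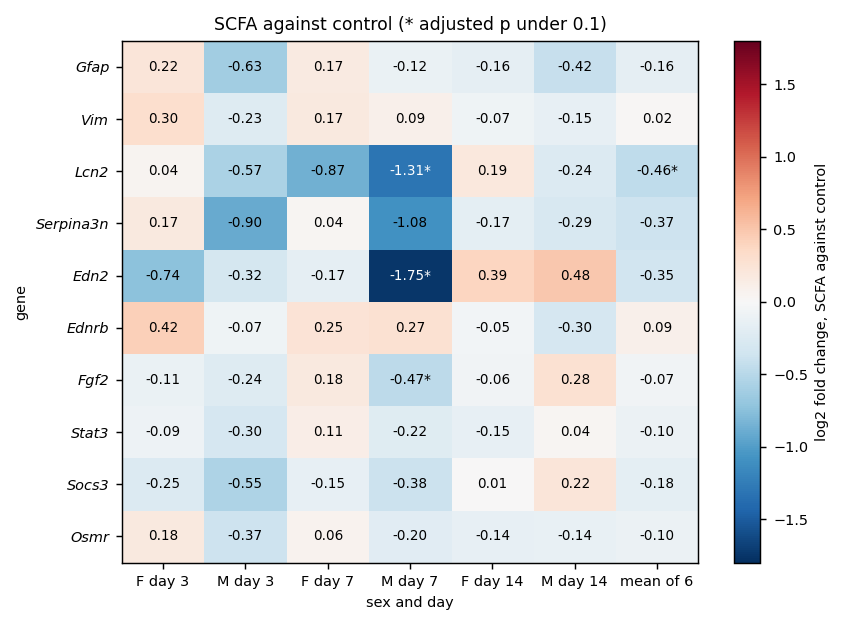
Log2 fold change of SCFA against control for each gene (vertical axis) in the 6 sex and day groups and their average (horizontal axis), with colour and printed value, and a star where the adjusted p is under 0.1. Stars stand at *Edn2* (−1.75), *Lcn2* (−1.31) and *Fgf2* (−0.47) in males of 7 dpl and at the average of *Lcn2* (−0.46).

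An interaction term asked, at each day, whether males and females answered SCFA differently. None of the 10 genes passed at 3, 7 or 14 dpl, where 0.00%, 0.0165% and 0.00% of all genes did, DESeq2 called none, and 1, 2 and 0 of the genes had an unadjusted p under 0.05, against 8.23%, 8.12% and 11.2% of all. For *Edn2* at 7 dpl the male response was lower than the female one by a log2 difference of −1.58 (SE 0.616, 95% interval −2.83 to −0.33, adjusted p = 0.506). For *Lcn2* the difference was −0.44 (SE 0.506, adjusted p = 0.850). Without the female control library with Y-linked transcripts the difference was −1.21 (SE 0.492, adjusted p = 0.557) for *Lcn2* and −1.19 (SE 0.622, adjusted p = 0.637) for *Edn2*. A difference between the sexes in these genes is not shown, and the interval of *Edn2* includes large ones. The response also did not pass as different between 3 and 7 dpl (0.00% of all genes), where DESeq2 called none of the set and 1 had an unadjusted p under 0.05, against 9.11% of all genes.

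Males and females were also compared directly, since sex differences in the lasered retina were a question of the study. No gene of the set passed in control libraries at 3, 7 or 14 dpl, where 0.0495%, 0.0495% and 6.28% of all genes did, nor in SCFA libraries, where 1.22%, 0.490% and 0.0605% did. By DESeq2 1 passed, in controls of 14 dpl, where 15.6% of all genes did by DESeq2, and none in the other 5 comparisons. An unadjusted p under 0.05 was reached by 2, 3 and 2 genes in controls and by 1, 1 and 0 in SCFA groups, against 5.59%, 4.22% and 19.6%, and 19.2%, 11.1% and 3.04%, of all genes. In controls all 10 values were higher in males at 3 dpl (median log2 fold change 0.42) and again at 7 dpl (0.38), whereas 8 of 10 were lower in males at 14 dpl (−0.17). The male controls of 3 and 7 dpl are the same libraries that SCFA was set against above. *Serpina3n* had the largest of these values at 3 dpl, 1.28 (SE 0.543, adjusted p = 0.849), with 34.2, 18.4 and 28.1 CPM in females and 104, 35.1, 33.2 and 76.2 CPM in males. Here 3 of 4 male libraries lay above every female one and male replicate 3 lay between them. Averaged over treatments and days, 1.90% of all genes passed in edgeR and 7.00% in DESeq2. *Lcn2* had 0.45 (SE 0.152) there, with an adjusted p of 0.133 in edgeR and 0.0784 in DESeq2. Without female control replicate 2 of 7 dpl, the library with Y-linked transcripts, it was higher in males by 0.58 (SE 0.138) and passed (edgeR's adjusted p = 0.0402).

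In controls of 7 dpl the values changed with the libraries compared. *Lcn2* had 0.56 (SE 0.383, adjusted p = 0.999), and 1.33 (SE 0.401, adjusted p = 0.433) without that female library, while *Edn2* went from 0.86 (SE 0.470) to 0.48 (SE 0.493). Then 9 of 10 values were higher in males, *Socs3* being the exception at −0.05, and no gene of the set passed. In a fit of only the 4 libraries that the study's list for this comparison names, male replicates 2 and 3 and female replicates 1 and 3, 3 genes passed as higher in males by edgeR: *Lcn2* (1.62, SE 0.216, adjusted p = 0.0101), *Vim* (0.62, SE 0.128, adjusted p = 0.0453) and *Gfap* (1.05, SE 0.263, adjusted p = 0.0667). These 2 male libraries had myelin gene sums of 131 and 431 CPM, and the part of that in the result was not tested. The share of all genes that passed in this fit is not given here, so the 3 genes have no background to be read against.

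Across the 42 libraries most of the 10 genes varied together. Of 45 pairs, 38 had a Pearson's r of log2(CPM + 1) above 0, 14 had an r of 0.5 or more, and the median was 0.40. These are descriptions: the libraries share groups, runs and cell composition, and genes are not independent replicates. *Fgf2* and *Stat3* were closest, at 0.82, followed by *Gfap* and *Serpina3n* at 0.72. *Edn2* followed *Fgf2* at 0.61, but it had an r of −0.36 with its receptor gene *Ednrb*. After the means of group and run were removed, the median was 0.30, *Fgf2* with *Stat3* had 0.81, *Edn2* with *Fgf2* 0.74 and *Gfap* with *Serpina3n* 0.62. Again 38 of 45 pairs were above 0.

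**Figure D5:**
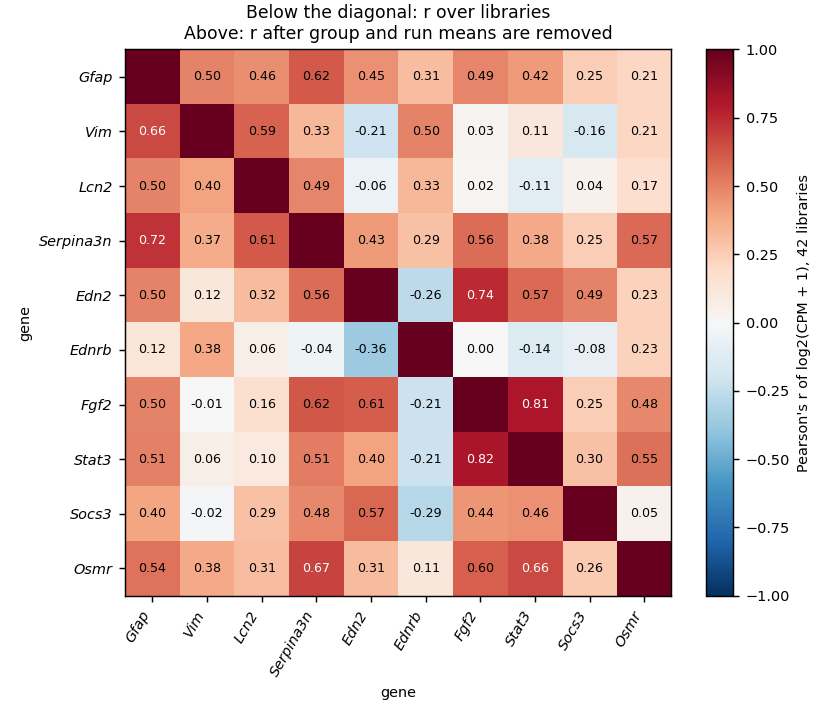
Pearson's r of log2(CPM + 1) between each pair of the 10 genes over 42 libraries, below the diagonal as measured and above it after the means of group and run were removed (colour from −1 to 1, values printed). *Fgf2* with *Stat3* is highest below and above it (0.82 and 0.81), and *Edn2* with *Ednrb* has −0.36.

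Among 14929 other genes with a mean of at least 1 CPM, those most like each member over the 42 libraries were then listed, up to 3 for each. *Gfap* was closest to *C4b* (r = 0.83), *Fcrls* (0.79) and *Irf8* (0.77), the first a complement gene and the last a transcription factor gene of microglia. *Vim* was closest to *Pdpn* (0.87), the gene of podoplanin, and *Lcn2* to the complement gene *C3* (0.71). *Serpina3n* and *Socs3* had the same nearest gene, *Timp1*, at 0.80 and 0.72. *Edn2* was closest to *Tnnt2* (0.81), *Ednrb* to the myelin gene *Pmp22* (0.64), *Fgf2* to *Lad1* (0.84), *Stat3* to the kinase gene *Jak3* (0.72) and *Osmr* to *Sall1* (0.72). With the summed microglial markers *Gfap* had an r of 0.72 and *Serpina3n* of 0.70. With the astrocyte markers *Gfap* had 0.72 and *Vim* 0.74, and with the Müller cell markers they had 0.31 and 0.69. *Vim* had 0.61 with the microglial markers.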

How the data were processed

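Retinal RNA was sequenced on a NovaSeq 6000 with paired reads of 150 bases. The authors deposited raw read counts per gene, and the submitters' processing notes name mm10 and DESeq2. The aligner, its annotation and the strand setting are not given in the sources used here. Of the gene identifiers, 54495 were named by GENCODE M21 (GRCm38) and 37 were not. Library totals had a median of 17683615 counts, and 3 counts equal 0.139 to 0.202 CPM, a floor that covers counting error only.

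The members and lists were chosen with earlier results of these data known. All 42 libraries entered 1 fit in edgeR 4.0.16 (R 4.3.3): filterByExpr, TMM, estimateDisp and glmQLFit, with terms for the 12 groups and for the run of columns (first 31 or last 12 columns of the deposited table; what separates them is not stated). Contrasts were tested by glmQLFTest with Benjamini-Hochberg adjustment over 18173 genes, and a gene passed at an adjusted p under 0.1, the study's threshold. The standard error is the log2 fold change divided by the square root of F. There were 25 comparisons, and 3, of days over both treatments, were added after the values had been seen.

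All 10 members were named in every comparison. Of each marker or pathway list, up to 4 genes with the smallest p were named, and for likeness the 3 nearest genes, not all of which are printed. The result of the gp130 list for 14 against 3 dpl is not reported here. The statistics were tested on simulated data. Promoters are RefSeq's on GRCm38.p6, and matched all 10 members.

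Alternatives were DESeq2 1.42.0, RLE size factors, no filter or at least 10 counts in every library, a robust fit, no run term, either run alone, all 43 libraries, only the groups compared, the study's own libraries, the replicate number as a block, an adjusted p under 0.05, an absolute log2 fold change over 1, each library left out, and, added after the values had been seen, no library with *Mobp* over 5 CPM. The labels name every library's treatment field as control, so treatment was taken from the titles. The g/L values beside the mM doses put butyrate above propionate, so these 2 doses are uncertain. Figures were drawn with matplotlib 3.10.9 in Python 3.11.15, with numpy 2.4.6 and pandas 2.3.3.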

Additional observations from a re-analysis of the deposited data

Results flagged for a closer look

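Within groups of 4 or 5 libraries, 50 sets of values (a gene in a group) were examined for a single library far from the rest by Dixon's criterion, and 4 were found, where chance gives about 1 in 20. *Edn2* had 67.8 CPM in male control replicate 1 of 3 dpl, against 14.9 to 22.9 CPM in the other libraries of the group. *Ednrb* had 10.4 CPM in female SCFA replicate 3 of 7 dpl, against 6.22 to 6.45 CPM. *Ednrb* also stood out in male SCFA replicate 2 of 7 dpl, with 16.0 CPM against 7.55 to 9.63 CPM, the library with 337 CPM of myelin genes. *Fgf2* had 20.1 CPM in male SCFA replicate 5 of 7 dpl, against 29.5 to 31.3 CPM.

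The library left out of all comparisons, female SCFA replicate 2 of 3 dpl, held 4 of the genes above every female control library of 3 dpl. In it *Vim* had 1049 CPM, *Serpina3n* 35.8 CPM, *Ednrb* 14.8 CPM and *Osmr* 15.3 CPM. It carries lens transcripts, and their part in these values was not tested.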

How the results depend on the processing

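Counts here are members of the 10 that passed the test. The share of all genes that passed also changed with the setting. It is not given for each setting, so these counts alone show nothing particular to the set. With no filter on low counts more members passed: over days 2 (control, 7 against 3 dpl), 5 (14 against 7) and 4 (14 against 3), 1 and 3 with SCFA (7 against 3, 14 against 7), and 2, 6 and 7 over both treatments. For SCFA against control that setting gave 1 in females of 3 and of 7 dpl, 2 and 1 in males of 3 and 14 dpl and 4 on average. For males against females it gave 3, 2 and 2 in controls, 1 and 3 with SCFA at 3 and 7 dpl and 1 on average, and for the differences between responses 2 (sexes, 3 dpl), 2 (sexes, 7 dpl), 1 (7 minus 3 dpl) and 1 (14 minus 3 dpl). The p-values of this setting were far smaller at like fold changes. In controls from 7 to 14 dpl, *Edn2* had a log2 fold change of −1.41 with an adjusted p of 1.6e-24 by edgeR. By DESeq2 it had −1.42 (DESeq2's adjusted p = 0.0904), and with the filter the lowest adjusted p of the 10 genes there was 0.295. Calls of this setting are therefore not read as results. The cause was not tested. DESeq2 gave 1 (control, 14 against 7), 2 (SCFA, 14 against 7), 1 (both treatments, 14 against 7), and for males against females 1 (control, 14 dpl) and 1 on average. Of all genes it called 0.257%, 3.00%, 0.659%, 15.6% and 7.00% in these comparisons, in the same order.

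For SCFA from 7 to 14 dpl, 0 members passed at an adjusted p under 0.05, with a log2 fold change over 1, with all 43 libraries, in the first run alone, with no run term, with only the groups compared and without the *Mobp* libraries. For SCFA from 3 to 14 dpl, 0 passed at an adjusted p under 0.05, in the first run alone, with no run term and without the *Mobp* libraries, and 1 with a log2 fold change over 1 and in the robust fit. Over both treatments from 3 to 14 dpl, 2 passed with a log2 fold change over 1, 2 with no run term and 0 in the first run alone. For the SCFA average, 0 passed with a log2 fold change over 1, 2 in the first run and 3 without the *Mobp* libraries, which gave 1 for males of 7 dpl and 1 for controls from 3 to 14 dpl. With only the groups compared, 4 passed in controls from 3 to 14 dpl, 2 for SCFA in females of 3 dpl, 1 in males of 14 dpl and 2 for the sexes with SCFA at 3 dpl. All 43 libraries gave 1 and 1 in females of 3 dpl and for the sexes with SCFA at 3 dpl. The libraries of the study's lists gave 1 for females and 1 for males of 14 dpl and 3 for the sexes in controls of 7 dpl, and the second run alone gave 1 for the sexes with SCFA at 7 dpl.

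With each library left out in turn the count ran from 0 to 1 (control, 14 against 3 dpl), 0 to 2 (SCFA, 14 against 7), 0 to 3 (SCFA, 14 against 3), 0 to 1 (SCFA, females of 7 dpl), 2 to 4 (males of 7 dpl), 1 to 2 (SCFA average), 0 to 1 (sexes, controls of 14 dpl), 0 to 1 (sexes on average) and 3 to 6 (both treatments, 14 against 3). *Lcn2* in females of 7 dpl passed without control replicate 3 (−1.18, adjusted p = 0.0533), the lowest of these controls, whose removal widens the difference by itself. Over all members and alternatives no value that had passed changed sign. Same-numbered control and SCFA libraries did not in general deviate together (r from −0.29 to 0.41 over 17 pairs, median −0.04, 5 pairs over 0.1). These values show no pairing by number but cannot exclude one. With the replicate block 1 member, *Gfap*, passed for SCFA from 3 to 14 dpl. No member had under 42 counts in any library, against a floor of 3, and what depth or the number of libraries limits was not tested.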
